A study of Mus musculus with 16 samples.

Results

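The Rfx3 peak list of the embryonic mouse retina is a set of 3981 genomic regions that the authors called from CUT&RUN libraries made with an antibody to the transcription factor Rfx3. All peaks of that list were described, out of 9731 peaks in the 3 lists of the series; the other lists, for Foxn3 (2794 peaks) and Foxn4 (2956 peaks), serve as context. The series compared where these 3 factors sit in retinal chromatin, in 16 libraries. The groups behind the Rfx3 list were anti-Rfx3 (2 libraries) and rabbit IgG for Rfx3 (2 control libraries), both from retinas of the outbred strain CD-1 at embryonic day 16. Retinas were pooled before dissociation with Accutase, about 300000 live cells went into each assay, and nuclease digestion lasted 1 h. The groups differed in the antibody alone, per the labels, and a library stands for pooled retinas and all retinal cell types at once.

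A single list was deposited per antibody. It gives a position and a score for each peak, with no value per library, and values of the IgG libraries were not analysed here. No result below therefore has a spread between replicates, no test was run, and read depth is unknown. Shares are given with 95% Wilson intervals where they matter. These cover counting error only, since peaks and genes are not replicates and neighbouring ones are not independent. The score is the authors' own value per peak, a whole number whose scaling is not stated; it was used only to rank peaks within the list.

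In CUT&RUN, an antibody bound to a chromatin protein in unfixed cells draws in micrococcal nuclease, and the DNA cut free beside the protein is sequenced. Rfx3 belongs to the regulatory factor X family, winged-helix proteins that bind the X-box, an imperfect inverted repeat of the motifs GTTNCC and GGNAAC with a short gap between them. Family members are known as regulators of genes for cilia, from nematodes to mammals. Primary cilia are single sensory antennae found on most cells, retinal progenitors included, and a photoreceptor's light-sensing outer segment is a modified one. Motile cilia carry in addition the dyneins, radial spokes and central pair that let them beat, and the retina is not known for bearing them.

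The X-box was searched in RefSeq promoter windows of GRCm38.p6 (the assembly also called mm10), each 300 bases long, from 250 before to 50 after an annotated start. GTTNCC had to be followed by GGNAAC after a gap of 1 to 3 bases, with at most 1 mismatch among the 10 fixed letters. This order reads the same on both strands. The stretches shown here come from promoters of high-scoring members of the cilium lists and of Rfx2, chosen among such matches to show how the matches vary in gap and letters. They are 30 bases long, read 5′ to 3′, and capitals mark the X-box match with its gap.
Tctn2 (chr5:124598679-124598708, plus strand): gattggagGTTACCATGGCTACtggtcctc
Tctn3 (chr19:40612350-40612379, minus strand): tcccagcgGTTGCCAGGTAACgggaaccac
Bbs7 (chr3:36613489-36613518, minus strand): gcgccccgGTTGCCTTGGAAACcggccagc
Ift57 (chr16:49699226-49699255, plus strand): gccctgcgGTTGCCTGGTAACggtggggac
Dynlrb2 (chr8:116504956-116504985, plus strand): cctgcctgGTTGCCTAGCAACgggggaagc
Dnah9 (chr11:66168612-66168641, minus strand): ttccaccaGTTTCCCAGCAACaacgacgcg
Ccdc151 (chr9:22002647-22002676, minus strand): cgcgggcgGTTTCCTTGGGAACgtgggcgg
Cfap298 (chr16:90934896-90934925, minus strand): tttgactGTTGCCCCTGGCAACagccactt
Hydin (chr8:110266948-110266977, plus strand): actctgcgGTTGCTGTGGCAACagatggta
Rfx2 (chr17:56831102-56831131, minus strand): ggtaaccGTTGCCGGGCGCAACgccccgcc

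The Rfx3 peaks lay on 20 chromosomes and covered 2049 kb. Scores ran from 7 to 3562, with a median of 76 and an interquartile range of 43 to 165. Only 66 peaks scored over 1000, and the 398 highest-scoring peaks held 45.4% of the summed score. Widths ran from 136 to 3583 bp with a median of 469 bp, and score and width were nearly unrelated over peaks (Spearman's rho 0.02, a description over 3981 peaks from the same libraries). Per 100 protein-coding genes, chromosome X carried the fewest peaks (8.28) and chromosome 12 the most (28.1).

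Peaks fell at gene ends and away from them in nearly equal number. Of the 3981 peaks, 1941 (48.8%, interval 47.2 to 50.3%) had a midpoint no more than 1 kb from the annotated start or end of a gene that codes for protein. Of the other 2040, 1148 lay inside a gene (56.3%) and 892 between genes. Scores overlapped widely between the classes. The median was 69 at gene ends (interquartile range 39 to 200) and 78 elsewhere (48 to 147).

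Peaks at genes sat at the start of transcription, slightly upstream of it. Strand was known only for genes with a promoter window, none of which lay on chromosome 18, and outside that chromosome 1807 of 3874 peaks (46.6%) had an annotated start within 1 kb. The peak midpoint was within 250 bp of the start for 84.1% of these, and it was upstream for 75.5%, at a median of -85 bp. Among 1407 genes over 10 kb long that had a peak at an end, 1341 had it at the start only, 18 at both ends and 48 at the far end only. Midpoints in the lowest score quartile lay farther upstream (median -112 bp) than those in the highest (-66 bp).

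By the same distance, 2329 of 21887 protein-coding genes, or 10.6% of all, had an Rfx3 peak at an end; these are called marked genes. A peak can lie within 1 kb of the ends of several genes, whichever way they are read. Of the peaks at gene ends 426 lay at 2 genes, and 848 marked genes (36.4%) shared a peak with another gene. The extreme case was the clustered protocadherin locus, where a peak of score 61 (chr18:37841965-37843263) lay at the ends of 25 annotated genes, 21 of them Pcdhg genes, which share their last exons. Each marked gene was ranked by its highest-scoring peak. By quartile of score over all peaks, 29.1% of marked genes had their best peak in the lowest quartile and 29.2% in the highest, so marked genes as a whole leaned to neither.

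Cilium genes made up a larger share of the peaks in the upper score quartiles than in the lower ones. Gene lists for cilium parts held 260 matched genes, and 154 of the 1941 peaks at gene ends (7.9%) lay at 1 or more of them. The share was 1.2% of 580 peaks in the lowest score quartile (interval 0.6 to 2.5%), 4.7% of 426 in the second, 13.1% of 382 in the third and 13.9% of 553 in the highest (11.3 to 17.1%). In finer steps the share was highest, at 16.9%, among peaks scoring 137 to 208, and 12.2% among the 398 highest-scoring peaks. None of the 202 gene-end peaks among the 399 lowest-scoring peaks lay at a cilium gene. Genes for DNA replication and repair, ribosomes, proteasome and respiratory chain together took 16 of the 580 peaks in the lowest quartile and 13 of the 553 in the highest.

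The share of peaks at gene ends did not follow score in 1 direction. It was 58.2% in the lowest quartile, 42.8% and 38.4% in the middle quartiles and 55.6% in the highest. In finer steps it was 65.1% among peaks scoring 28 to 37, 34.4% among those scoring 76 to 98, and 64.1% among the 398 peaks of score 363 and over. Peaks of middle score were thus mostly away from gene ends, unlike those of low and high score.

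**Figure D1:**
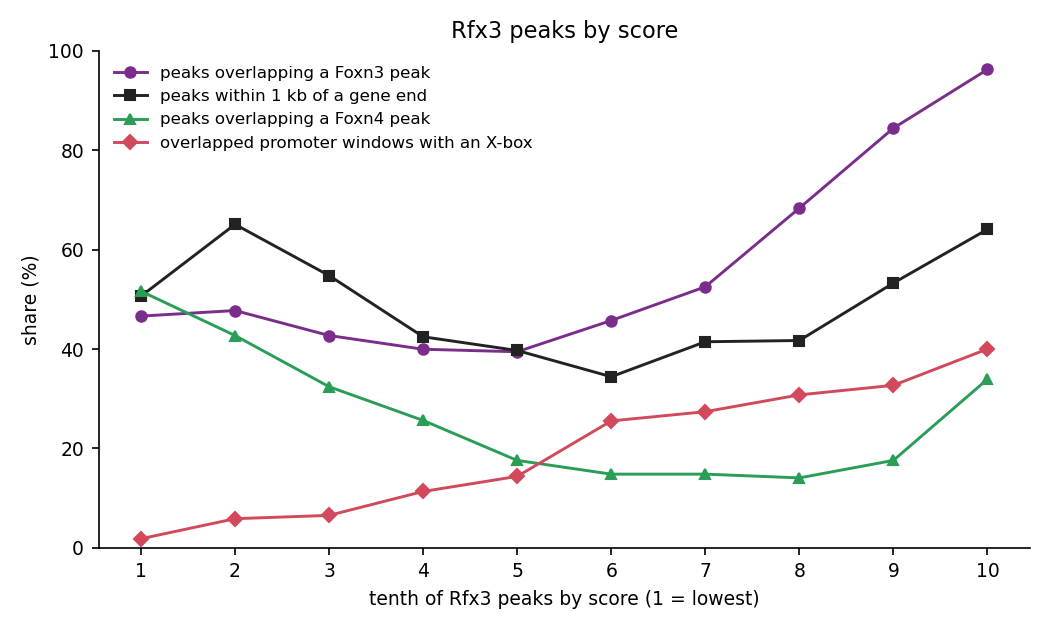
Shares of Rfx3 peaks by score, in 10 equal groups of 398 or 399 peaks from the lowest to the highest score (x axis); the y axis is the share in percent of peaks within 1 kb of a gene end, of peaks overlapping a Foxn3 or a Foxn4 peak, and of the promoter windows overlapped by those peaks that hold an X-box. The X-box share is higher in each successive group, from 1.83% to 40%, while the gene-end share is lowest in the sixth group (34.4%).

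Every list of primary and motile cilium parts had a larger marked share than the 10.6% over all genes. Together, 82 of 140 primary cilium genes (58.6%, interval 50.3 to 66.4%) and 70 of 121 motile cilium genes (57.9%, 48.9 to 66.3%) were marked. Their best peaks also ranked high. The median score percentile (the percentage of Rfx3 peaks with a lower score) was 72.4 for marked primary cilium genes and 80.8 for marked motile cilium genes, against 47.8 over all marked genes. A best peak in the highest score quartile was found for 43.9% of the first group and 60% of the second.

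**Figure D2:**
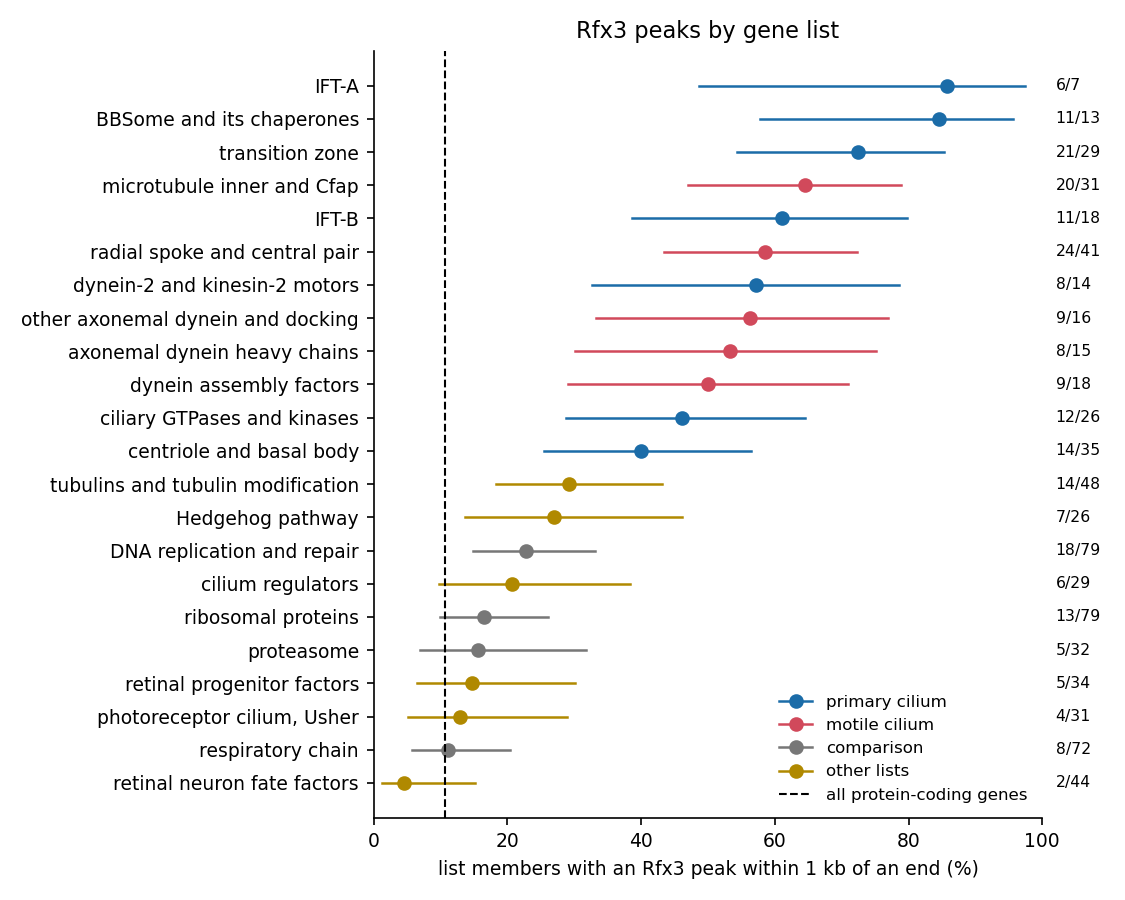
Share of each gene list with an Rfx3 peak within 1 kb of a gene end (x axis, percent), with marked and matched genes as counts at the right; points are shares, bars are 95% Wilson intervals for counting error, and colours separate primary cilium, motile cilium, comparison and other lists. The dashed line is the share over all protein-coding genes, 10.6%; the IFT-A, BBSome and transition zone lists lie highest and the retinal neuron fate list lowest.

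The transition zone is the gate at the cilium's base that controls which proteins enter, and its genes are those of the Joubert and Meckel syndromes. Of 29 genes, 21 were marked (72.4%), 12 of them in the highest score quartile. Tctn2, a tectonic protein of the gate, carried the fifth-highest peak of the list, with a score of 2120 (chr5:124598489-124599122) and a midpoint 56 bp from the gene end. The other members with the highest scores were Tmem231 (score 435), Tctn3 (415), Tctn1 (409) and Tmem138 (341). All 3 tectonics were therefore marked in the highest quartile. An X-box stood in the promoter windows of 12 of the 18 marked genes that had a window. Over all marked genes with a window, counted by gene, it was 371 of 1942 (19.1%). Of the 5 genes named here, Tctn2, Tmem231, Tctn3 and Tmem138 had a match, and none was recorded for Tctn1.

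Intraflagellar transport (IFT) moves cargo along the axoneme, with IFT-B trains going outward and IFT-A complexes returning and loading membrane proteins. All IFT-A genes but Ttc21b were marked, 6 of 7, and none had its best peak below the median of the list. Ift122 scored highest (566, in a peak 1288 bp wide that was also near Mbd4), then Wdr35 (176), the adaptor Tulp3 (160), Ift43 (158) and Wdr19 (108). No X-box match lay in the promoter windows of the 5 marked IFT-A genes that had one. Of the IFT-B genes, 11 of 18 were marked, and 4 of 9 with a window had an X-box. Ift57 led with a score of 1017 (chr16:49698913-49699374), and Traf3ip1 (473), Ift81 (337), Ift22 (232) and Ift88 (122) followed.

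The BBSome is the coat complex that carries membrane proteins out of cilia, and its loss gives Bardet-Biedl syndrome. Its list was marked in 11 of 13 genes, with Bbs2 and Bbs10 the exceptions. Scores spread over the whole range, from 999 at Lztfl1, a regulator of BBSome entry, to 34 at the chaperonin-like Mkks. Bbs7 (512), Ttc8 (342), the GTPase Arl6 that recruits the complex (170) and Bbs12 (157) were the next highest.

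Of the dynein-2 and kinesin-2 motor genes that drive IFT, 8 of 14 were marked, 5 in the highest quartile. Dync2li1 (655), Wdr34 (553) and Dynlrb2 (532), all subunits or light chains of dynein, stood above Dynll1 (201) and the kinesin Kif3b (170). Small GTPases, lipid-binding carriers and kinases of the cilium were marked in 12 of 26 genes, and none of these had its best peak in the lowest quartile. The kinase Mok scored 1084, Cdk20 342, Stk36 311, the GTPase Arl13b 273 and Rab28 261.

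Genes of the centriole, from which a cilium grows, formed the lowest of the primary cilium lists. Of 35 genes 14 were marked (40%, interval 25.6 to 56.4%), and their median score percentile of 45.6 was below the 47.8 over all marked genes. Cep89, a distal appendage protein, had the highest score, 776, in a peak also near Faap24. Ccp110, which caps the growing centriole (293), Cep135 (207), C2cd3 (150) and Cetn2 (127) came next.

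Among motile cilium genes, the parts of the radial spoke, nexin link and central pair were marked in 24 of 41 genes. Their lowest percentile was 65, so each of the 24 scored above the median of the list, and 16 were in the highest quartile. Gas8, a subunit of the nexin-dynein regulatory complex, had a peak of score 1623 (chr8:123518579-123518980) that was also near Dbndd1. Hydin, a central pair protein, scored 1109, Fbxl13 711, and the radial spoke genes Rsph1 and Rsph14 702 and 593. An X-box was found in 11 of the 21 marked genes with a window.

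Proteins inside the axonemal microtubules and other Cfap proteins were marked in 20 of 31 genes, 14 in the highest quartile. Cfap36 (1048), Cfap20 (856), Cfap44 (566), Enkur (547) and Cfap57 (426) had the highest scores. The peaks of Enkur and Cfap57 were also near the neighbouring genes Thnsl1 and Ebna1bp2, so which gene they belong to cannot be told from position.

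Axonemal dyneins are the motors of the ciliary beat. Of the 15 heavy chain genes 8 were marked, Dnah6 (569), Dnah9 (346) and Dnah10 (174) in the highest quartile and Dnah5 (128) and Dnah11 (112) in the third. The remaining 3, Dnah7a, Dnah7b and Dnah7c, had scores of 52, 62 and 45; they are near-identical copies, and how reads that map to several places were handled is not given in the sources used here, so these peaks are uncertain. Other arm and docking subunits were marked in 9 of 16 genes, with Ccdc151 (666), Casc1 (588), Dnaic1 (251), Wdr63 (208) and Dnal1 (187) highest. Factors that assemble dynein arms in the cytoplasm were marked in 9 of 18, led by Dnaaf5 (1113), Cfap298 (1043), Dnaaf3 (292), Zmynd10 (251) and Daw1 (161). In that list 5 of the 7 marked genes with a window had an X-box. The count was 1 of 8 for heavy chains, 1 of 10 for centriole genes and 1 of 11 for GTPases, carriers and kinases. These lay below the 19.1% over all marked genes with a window. Above it were other arm and docking subunits (2 of 7), IFT motors (2 of 7), the BBSome (4 of 11) and the Cfap list (6 of 15). Over the pooled lists, 24 of 70 primary and 25 of 58 motile cilium genes had an X-box.

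**Figure D3:**
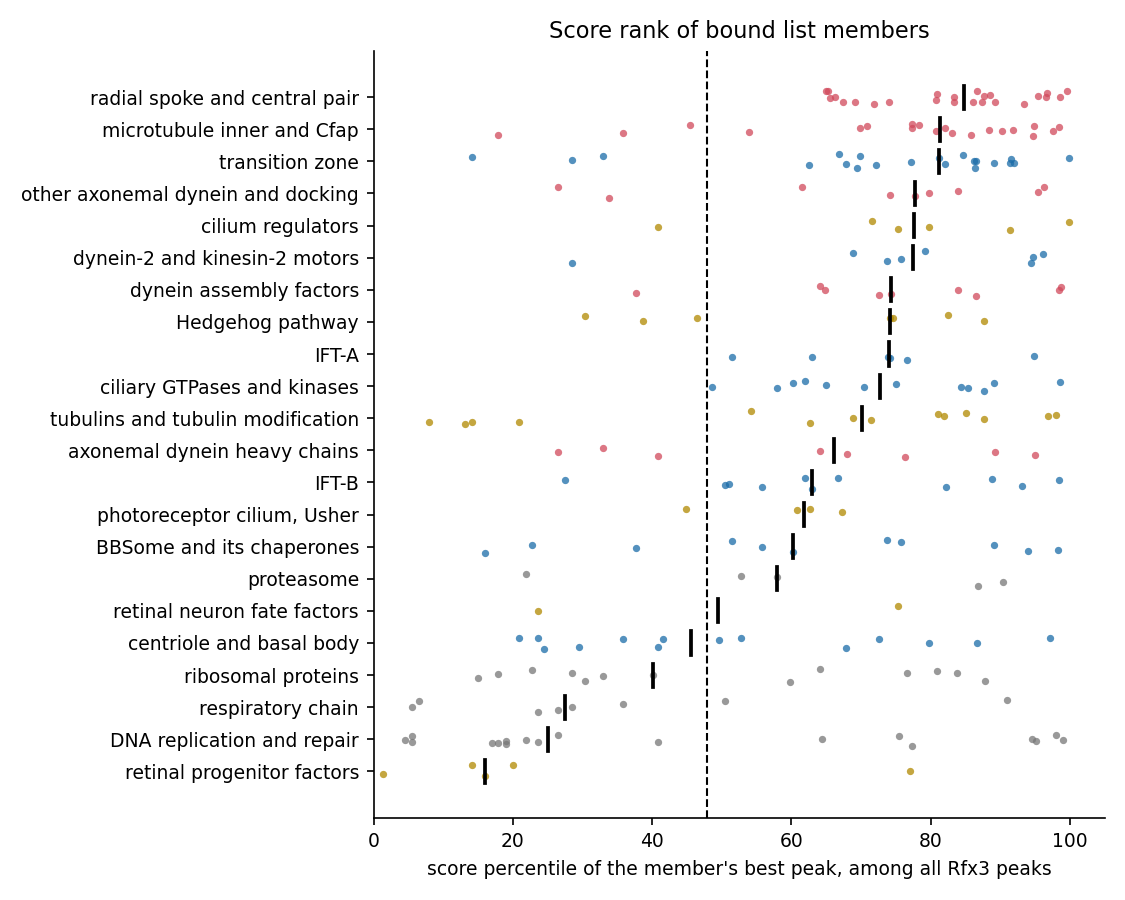
Score percentile of the best Rfx3 peak (x axis, percentage of all Rfx3 peaks with a lower score) for each marked gene, by list; points are genes, coloured blue for primary cilium, red for motile cilium, grey for comparison and ochre for other lists, with vertical jitter to part them, and black bars are list medians. The dashed line is the median over all marked genes, 47.8; all 24 radial spoke and central pair genes lie right of it, and 4 of 5 retinal progenitor genes lie left of it.

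Few regulators of ciliation were marked, and those mostly with high scores. Of 29 genes 6 were marked (20.7%, interval 9.8 to 38.4%), a range that includes the 10.6% of all genes, but 4 of the 6 were in the highest quartile. Foxj1, the forkhead factor that switches on motile cilium genes, had the sixth-highest peak of the list (score 2091, chr11:116335286-116335588), 62 bp from its end and also near Rnf157. Its peak was narrow, at 303 bp. Rfx2 had a peak of score 412 at its end and higher-scoring ones inside the gene (766 and 479). Foxn2 (208), Ccno (168), which acts in centriole amplification, E2f5 (145) and Dmxl2 (62) were the other marked regulators.

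Rfx3's own gene had no peak at an end. Counting peaks over 1 kb from the ends of all genes, inside a gene or within 50 kb of it, Rfx3 had 1 inside (score 108) and Rfx1 had 1 inside (654). Rfx7 had 1 that lay 40114 bp outside the gene (78), and Rfx4, Rfx5, Rfx6 and Rfx8 had none. Foxn1 had none and Foxn4 a low one inside (25). Gmnc and Mcidas, which start the multiciliated programme, had neither a peak at an end nor one of this kind.

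Foxn3 carried the most peaks of any gene, 6 inside its span of 374 kb, with scores from 28 to 1932. The highest of these (chr12:99339493-99341298) was 51771 bp from the nearest annotated gene end and overlapped both a Foxn3 and a Foxn4 peak. It was 1806 bp wide, the fourth-widest peak of the list. The Foxn3 list overlapped 4 of the 6.

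Signalling genes and tubulins had shares between those of the cilium parts and that of all genes. In the Hedgehog pathway, whose receptors and Gli factors pass through primary cilia, 7 of 26 genes were marked (26.9%, interval 13.7 to 46.1%). Among them were Stk36 (311), Iqce (237), Tulp3 (160) and the inhibitor Sufu (69). The core genes Ptch1, Smo, Gli1, Gli2 and Gli3, picked out after their values were seen, were not marked. Tubulins and tubulin-modifying enzymes were marked in 14 of 48 genes (29.2%), with the glutamylase Ttll13 (929), Tuba1a (732), Tube1 (311), Agbl4 (269) and Agbl3 (228) highest. Tubulin genes have close paralogs, so their peaks carry the same mapping uncertainty as those of the Dnah7 copies.

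Lists without a ciliary role lay nearer to the share over all genes. Respiratory chain genes were marked in 8 of 72 (11.1%), proteasome genes in 5 of 32 (15.6%), ribosomal protein genes in 13 of 79 (16.5%) and DNA replication and repair genes in 18 of 79 (22.8%, interval 14.9 to 33.2%). In the last list the peaks split by score. The best peak was in the lowest quartile for 9 of the 18 genes and in the highest for 6. Those with the highest scores were the repair scaffold Xrcc1 (1260), Brca1 (949), the clamp loader subunit Rfc5 (580), Fanci (542) and the polymerase subunit Pold3 (182). The peaks of Xrcc1, Brca1 and Fanci were also near Pinlyp, Nbr1 and Rlbp1. An X-box lay in the windows of Brca1, Rfc5, Fanci and Pold3, but not in that of Xrcc1. Over the list it was found for 5 of 14 marked genes with a window, beside 371 of 1942 (19.1%) over all marked genes with one.

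Beside the 10.6% of all genes, retinal neuron fate factors had a lower marked share, and photoreceptor cilium and retinal progenitor genes slightly higher ones. Of 44 factors for retinal neuron fates only Nrl, the rod factor (168), and Onecut2 (42) were marked, 4.5% with an interval of 1.3 to 15.1%. With annotated starts only, none of which lay on chromosome 18, the share was 0%, beside 11.6% of all genes. The Nrl peak was thus not within 1 kb of an annotated start of Nrl, and Onecut2 is on chromosome 18. Of 31 photoreceptor cilium and Usher syndrome genes 4 were marked (12.9%, interval 5.1 to 28.9%), Spata7 (124), Ttll5 (107), Whrn (101) and Kiz (67). Of 34 retinal progenitor factors 5 were marked (14.7%, interval 6.4 to 30.1%), Six6 (179), the Notch effectors Hes5 (38) and Hey1 (34), Id1 (32) and Neurog2 (18). With a distance of 5 kb in place of 1 kb, 38.2% of the progenitor factors and 29% of the photoreceptor list were marked, beside 14.1% of all genes. With peaks at or above the median score alone, 2.94% of the progenitor factors were, beside 5.19% of all genes. The 4 marked progenitor factors other than Six6 had their best peak in the lowest score quartile, and 4 of the 5 peaks, at Six6, Hes5, Id1 and Neurog2, overlapped a Foxn4 peak. That overlap was found for the best peaks of 33.4% of all marked genes. Among all gene-end peaks of the lowest score quartile it was 43.1%, and 5 genes are too few to set apart from these shares.

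Gene symbols offered a view that used no list. Symbols were grouped by their letters before the first digit, a grouping made after the data were seen, and 154 such stems had at least 15 genes. The share marked was above 10.6% in 72 of them. Dnah came first (8 of 15 genes), followed by Cfap (18 of 34), Cep (17 of 38), Stk (9 of 22) and Ap (11 of 29). The coiled-coil domain genes, Ccdc, were marked in 40 of 137, and 28 of those 40 had their best peak in the highest quartile. For Ddx, the DEAD-box helicases, 6 of 11 were in the lowest quartile, and for Rbm, the RNA-binding motif proteins, 5 of 8. No gene was marked in 41 stems, among them the olfactory receptors Olfr (0 of 1110) and the vomeronasal receptors Vmn (0 of 355).

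The share of promoters with an X-box differed several-fold by score. Over all 21263 promoter windows of protein-coding genes, 1038 (4.88%) held a match. In windows of marked genes the share was 15.9% (interval 14.5 to 17.4%), and in windows of genes without a peak at an end it was 3.43%. By score quartile of the gene's best peak, the share was 4.04% in the lowest, 8.2% and 21.3% in the middle quartiles and 30.4% in the highest (27.2 to 33.9%). Windows of the lowest quartile thus held an X-box about as often as windows at large.

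Seen from the motif, 40.8% of the 1038 windows with an X-box were overlapped by an Rfx3 peak (interval 37.8 to 43.8%), against 8.56% of windows without one. For the 153 windows with an exact match the share was 62.1% (54.2 to 69.4%). The gap between the repeats also differed. In overlapped windows 321 of 468 matches (68.6%) had a gap of 2 bases, as in the stretches of Tctn2, Bbs7, Ccdc151 and Hydin printed above, against 254 of 672 (37.8%) in windows without a peak.

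Many matches lay near the middle of the peak. In overlapped windows the X-box centre was a median of 64.8 bp from the peak midpoint, and 42.9% were within 50 bp. The same median was 78.5 bp for CCAAT, 96 bp for CCGGAA and 98 bp for GGGCGG, which are short motifs of general promoter factors. For the single motif GTTGCC, contained in many X-box matches, it was 71 bp. The part of peak width in these distances was not tested. Relative to the annotated start, X-box centres in overlapped windows had a median position of -53.5 bp, against -84.5 bp in windows without a peak. In Dynlrb2 the printed match was 19.5 bp from the peak midpoint and in Hydin 29 bp, while in Rfx2 it was 162.5 bp away.

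**Figure D4:**
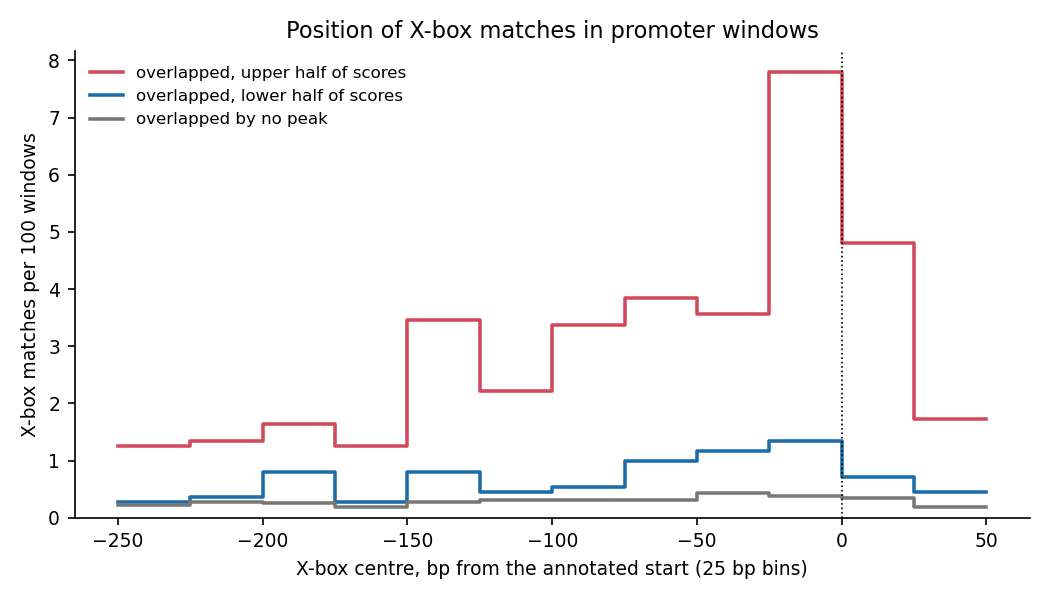
X-box matches per 100 promoter windows (y axis) by the position of the match centre from the annotated start (x axis, 25 bp bins, negative upstream), for windows overlapped by an Rfx3 peak of score at or above the median of the list, by a peak scoring below it, and by no peak. The bin just upstream of the start is the highest for windows under peaks of the higher scores, at 7.79 matches per 100 windows.

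Promoters under low-scoring peaks were richer in GC, CpG, CCAAT and GGGCGG. In windows overlapped by peaks of the lowest score quartile, GC content was 63.5%, with 25 CpG per window, against 60.2% and 21.2 in the highest quartile and 55.6% and 14.5 in windows without a peak. CCAAT (searched with its reverse, ATTGG) was found in 63.6% of windows in the lowest quartile and 50.5% in the highest, beside 38.2% of all windows. GGGCGG was found in 82.2% and 64.9%, beside 46.2% of all. CCGGAA went the other way, with 27% in the lowest quartile and 36.8% in the highest, beside 18.7% of all. So did the single motif GTTGCC, from 13.2% to 42.2%, beside 12.6% of all windows. GTAAACA, the general forkhead motif, was found in 43 of the 2155 overlapped windows (2%), fewer than the 3.01% of all windows, and GACGC, known as a second motif of Foxn factors, in 55.2%, beside 33.4%. GGGCGG was likewise found in 71.6% of overlapped windows, beside 46.2% of all. Overlapped windows had 61.8% GC and 22.9 CpG per window, beside 56.2% and 15.4 over all windows. GACGC holds a CpG, and the part of base composition in these motif shares was not tested. All motifs were searched on both strands, and GTTGCC is contained in many X-box matches.

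Narrow and wide peaks differed in their overlap with the other factors and in X-box content. The narrowest quartile had a median width of 303 bp and the widest 747 bp. The share overlapping a Foxn4 peak was 5.2% in the narrowest quartile and 41.5% in the widest, and for Foxn3 41.4% and 68.5%. An X-box was found in 29.5% of windows overlapped by the narrowest peaks and 16.1% of those overlapped by the widest. Among peaks in the highest score quartile, 53.7% of 95 windows under the narrowest peaks held one, against 24.6% of 272 under the widest.

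Narrow peaks of middle score lay mostly away from gene ends. Of the 342 narrowest-quartile peaks in the second score quartile 33.3% were at gene ends, and 3.8% overlapped a Foxn4 peak. In the third score quartile the corresponding 363 peaks gave 34.2% and 3%. The low gene-end share was not limited to the narrowest peaks. The next width quartile gave 41.3% in the second score quartile and 32% in the third. Wide peaks of the lowest score quartile, 271 in number, gave 45% and 50.6%, and none of their 122 gene-end peaks lay at a cilium gene. A wider peak can meet another list's peak by its width alone, and the part of width in these overlaps was not tested.

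**Figure D5:**
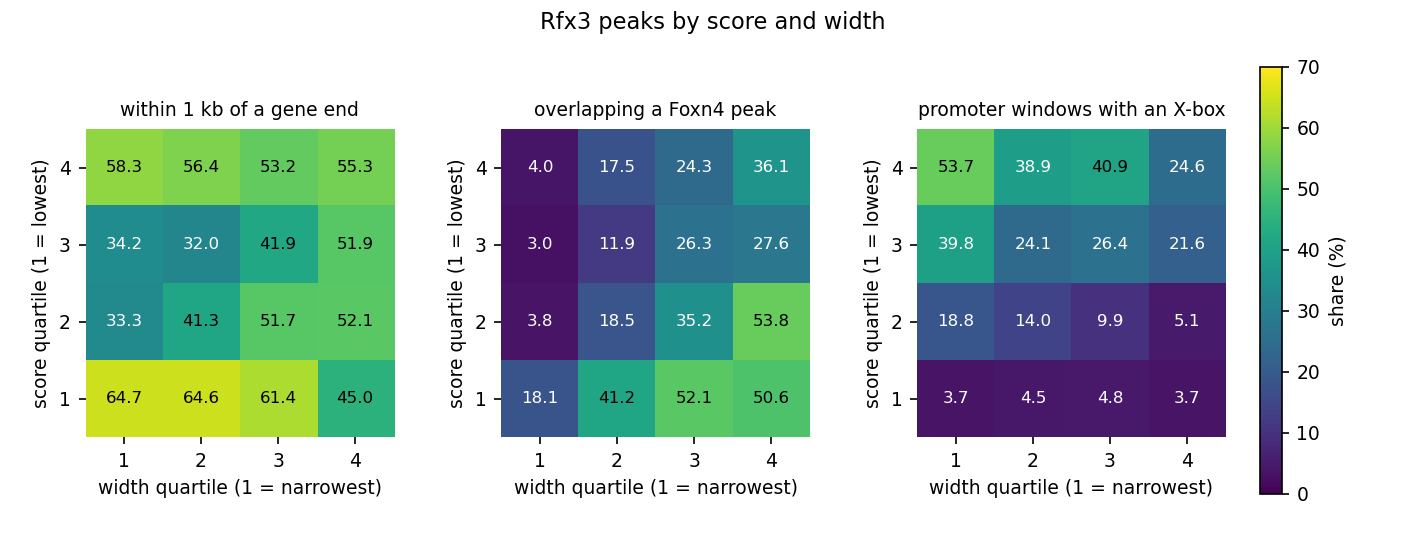
Shares of Rfx3 peaks in each combination of score quartile (y axis, 1 lowest) and width quartile (x axis, 1 narrowest); colour and number give percent of peaks within 1 kb of a gene end (left), percent overlapping a Foxn4 peak (middle) and percent of overlapped promoter windows with an X-box (right). Foxn4 overlap is below 20% in all 4 cells of the narrowest peaks, and the X-box share is highest for narrow peaks of the highest score (53.7%).

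Median scores lay between 63 and 84 in every distance class, and overlap with the Foxn3 list was highest at gene ends. The 909 peaks within 100 bp of a gene end had a median score of 79, the 637 peaks at 100 to 250 bp 63, the 556 peaks at 5 to 20 kb 83 and the 586 peaks over 50 kb away 69.5. Overlap with the Foxn3 list was 71.5% in the nearest of these classes, 41.5% at 5 to 20 kb and 42.2% over 50 kb away. Overlap with the Foxn4 list was 29% within 100 bp, 38.1% at 100 to 250 bp, 15.5% at 5 to 20 kb and 28.5% over 50 kb away. At gene ends, cilium genes were hit by 10.5% of the peaks within 100 bp (interval 8.6 to 12.6%), 5.8% of those at 100 to 250 bp and 5.1% of those at 500 bp to 1 kb.

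Of the 12 highest-scoring peaks, 6 were at gene ends and 6 inside genes. The highest score, 3562, was at Sde2, a factor in replication stress and splicing, 216 bp from its end (chr1:180850666-180851204). Cep112, a centrosomal protein gene, followed with 2641 (chr11:108424863-108425463). Next came sites inside Mast3, a microtubule-associated kinase gene (2545), and Dlg4, which encodes the postsynaptic scaffold PSD-95 (2280), both more than 12 kb from a gene end. After Tctn2 and Foxj1 stood sites inside Bcl2l1, the gene of the survival factor Bcl-xL (1962), inside Foxn3 (1932), inside Nol4 (1906), inside the dynein adaptor gene Bicdl1 (1828), and at the ends of the chromatin gene Ing1 (1812) and of Fam214b and Stoml2 (1736). All 12 overlapped a Foxn3 peak and 4 of them, at Cep112, Foxn3, Bicdl1 and Ing1, a Foxn4 peak.

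Over 50 kb from any gene end, the highest scores were those inside Foxn3 and Nol4, near Stk35 (865), inside Mapre2, a microtubule plus-end protein gene (750), and near Efcab11 (746). The widest peak, 3583 bp near Gpr141, had a score of only 34, and the next, 3313 bp at Gm20783, a score of 512. Then came a peak of 2058 bp inside Notch1 (score 478), the one inside Foxn3, and one of 1798 bp inside the imprinted gene Peg3 (score 53). After Foxn3, the genes with the most peaks inside them were Msi2, Myo1d, Ptprn2 and Tex14, with 5 each. Those in Myo1d scored from 86 to 342 and overlapped no Foxn4 peak, while all 5 in Tex14 scored 46 or less and overlapped both other lists.

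Many retinal progenitor factors had peaks at a distance. A peak over 1 kb from any gene end lay inside the gene or within 50 kb of it for 17 of the 34 factors, beside 15.2% of all genes. For the 44 neuron fate factors it was 3. With peaks at or above the median score alone, the count for progenitor factors was 11 of 34 (32.4%), beside 9.29% of all genes. These counts were made after the data were seen, and genes differ in the space around them.

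The 25 peaks in question ranged over all scores, with 10 in the lowest quartile, beside 416 of all 2040 peaks over 1 kb from a gene end. A Foxn4 peak overlapped 11 of the 25 (44%), against 20.8% of those 2040. Among peaks over 1 kb from a gene end in the lowest score quartile the Foxn4 share was 46.9%, and the part of score in this difference was not tested. Near Nfix, a nuclear factor I gene, a peak of score 684 lay 9883 bp outside the gene. Inside Nr2f2, an orphan nuclear receptor gene, one scored 550, and inside Notch1, the receptor that keeps progenitors undifferentiated, the wide peak scored 478. These 3 genes were singled out after their values were seen.

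The overlap with the other factors' lists followed score in different ways. Of all Rfx3 peaks 56.4% overlapped a Foxn3 peak by at least 1 bp and 26.5% a Foxn4 peak. The Foxn3 share was 46.7% in the lowest score quartile, 39.9% in the second and 86.9% in the highest, and 96.2% among the 398 highest-scoring peaks. The Foxn4 share was 44.7% in the lowest quartile, 14.4% in the third and 23.7% in the highest. Promoter windows under peaks shared with Foxn3 alone held an X-box in 28.3% of cases and those under unshared peaks in 20%. Under peaks shared with both other factors it was 9.77% of 655 windows, and under those shared with Foxn4 alone 2.04% of 98. The Foxn4 libraries were digested for about 12 h and had a mouse IgG control, so antibody, digestion and control cannot be told apart in that contrast. Score differs between these groups of peaks as well. An X-box lay in 4.34% of windows under peaks of the lowest score quartile and 35.6% under the highest. The part of score and width in the X-box shares by overlap was not tested.

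Genes that make no protein took a small part. Of 12727 lncRNA genes 425 had a peak at an end by the same distance, and 184 of the 432 peaks there were not at the end of a protein-coding gene. For small nuclear RNA genes, 19 of 25 peaks were in the lowest score quartile, with a median score of 33. MicroRNA genes had 20 such peaks, 6 of them not at a protein-coding gene.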

How the data were processed

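The list rests on 2 anti-Rfx3 libraries and 2 rabbit IgG controls, as far as the labels tell. The submitters' processing notes name cutadapt, UMI-tools, Bowtie2, bedtools and SEACR, without settings, and the build mm10. The deposited peak score is the authors' value, with scaling, threshold, use of IgG and pooling of libraries not given in the sources used here. Depth is therefore unknown.

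Peaks were matched, with Python 3.11.15, pandas 2.3.3 and numpy 2.4.6, to the ends of 21887 protein-coding genes of a RefSeq table of GRCm38.p6, by peak midpoint within 1 kb. Promoter windows numbered 21263 for 17492 genes, with several windows for some genes. Linking and motif search were tested on simulated data. Members and lists were chosen with earlier results of these data known. The 22 lists held 788 symbols, 46 unmatched, and a gene may stand on 2 lists. Named were the 12 highest peaks, the 5 widest, the 5 highest over 50 kb from gene ends, the 5 genes with most peaks inside, the 5 highest-scoring members of each list, unmarked members where 4 or fewer, and the Rfx and Foxn genes with Foxj1, Ccno, Gmnc, Mcidas and E2f5. Some genes that this rule names are not reported here. Mkks and the Dnah7 copies were singled out after their values were seen. Alternatives changed distance, score minimum, gene end, overlap and mismatches, used the nearest base of the peak in place of its midpoint, or kept the nearest gene only.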

Additional observations from a re-analysis of the deposited data

How the results depend on the processing

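Of 150 pairs of a gene list, pooled lists included, and an alternative setting, 4 put the list on the other side of the share over all genes, 3 for the respiratory chain and 1 for retinal progenitor factors. The number of marked genes was 1136 with peaks scoring at or above the median. The share of peaks at gene ends was 44.3% within 500 bp, 60.8% within 5 kb, 47% with peaks at or above the median score and 46.6% with annotated starts only. With peaks at or above the median score, 46.4% of primary cilium genes were marked. The share of motile cilium genes marked was 67.8% within 5 kb and 66.3% with annotated starts only. With the nearest gene only, 49.6% of motile and 53.6% of primary cilium genes were marked, beside 8.73% of all genes. The share was then 69.2% for the BBSome, 71.4% for IFT-A and 37.5% for other arm and docking subunits. Where an overlap had to cover at least 50% of both peaks, 48.4% of Rfx3 peaks overlapped a Foxn3 peak and 19.7% a Foxn4 peak; with peaks at or above the median of each list, the Foxn4 share was 13.1%. An X-box was found in 3.4% of windows of marked genes with no mismatch, 44.4% with at most 2 mismatches, 26.8% with best peaks at or above the median score, and 19.6% in windows overlapped by a peak, a setting chosen after seeing the data. Of 138 alternative values for single lists and for the comparison lists together, 10 moved beyond their counting interval. No paired analysis was possible because the deposited list holds no values per library, and leaving out a library was not possible for the same reason. Depth limits for single peaks cannot be given.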
